A study of Homo sapiens with 4 samples.

Results

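The amino acid response governed by the transcription factor ATF4 was followed through 33 genes in BT549 cells, an established triple-negative breast cancer line, sorted by flow cytometry on surface NRP2. The genes were chosen by name, with earlier results of these data known. They are enzymes of serine, one-carbon, proline and asparagine synthesis and stress genes under ATF4 or upstream of it. Each matched 1 of the 31681 genes counted. The comparison was of cells sorted as high (NRP2-high, 2 libraries) and as low (NRP2-low, 2 libraries) for surface NRP2. Both came from the untreated parental line with no engineered change named in the labels. The gates of the sort were not described in the sources used here, and a single line limits both groups as a model. The origin of the 2 libraries of a group, from 1 culture or from several, was not stated, and the spread behind each p-value is that between these libraries and may be technical. RNA was measured in bulk, so a lower value can mean fewer expressing cells or less RNA per cell, which cannot be told apart.

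When amino acids are short or unfolded protein accumulates, kinases phosphorylate the initiation factor eIF2. General protein synthesis then slows while ATF4 is translated more. ATF4 pairs with other bZIP proteins and binds C/EBP-ATF response elements near genes that make, import and charge amino acids onto tRNA. If the stress lasts, ATF4 also raises *DDIT3* (CHOP), *TRIB3* and *PPP1R15A* (GADD34), which slow growth, favour cell death or restore translation. ATF4 is controlled largely at translation, so its mRNA is not a measure of its protein.

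The letters of the core element, TGATGNAA on either strand, were searched in RefSeq promoter windows of build GRCh38.p14, from 250 bases before to 50 after each annotated start. Windows were found for 27 of the 33 members, and 9 of these 27 (33.3%) held the letters, against 4.46% of 27305 genes with a window. Over single windows the shares were 11 of 47 for the members and 3.62% of 35116 in all. The site of *MTHFD1L* is counted in 3 of the 11 windows. For the stricter TGATGCAA, which is contained in TGATGNAA and was counted within it, the shares were 7 of 27 members (25.9%) and 1.08% of genes. A match describes letters only, and many members are known as ATF4 targets, so the share follows in part from the choice of genes. The 9 sites are printed 5′ to 3′ on the strand of the gene because they are the feature these promoters share. Capitals mark the element, which reads TTGCATCA where it lies on the opposite strand.
*ASNS* (chr7:97872458-97872487, minus strand): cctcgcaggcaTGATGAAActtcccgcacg
*ATF3* (chr1:212565205-212565234, plus strand): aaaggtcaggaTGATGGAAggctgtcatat
*BCAT1* (chr12:24949131-24949160, minus strand): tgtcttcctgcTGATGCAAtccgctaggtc
*CEBPG* (chr19:33374060-33374089, plus strand): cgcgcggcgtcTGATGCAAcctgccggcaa
*CHAC1* (chr15:40953251-40953280, plus strand): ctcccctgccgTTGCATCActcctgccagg
*FGF21* (chr19:48755459-48755488, plus strand): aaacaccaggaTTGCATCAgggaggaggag
*GOT1* (chr10:99430804-99430833, minus strand): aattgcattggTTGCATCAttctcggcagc
*JDP2* (chr14:75427995-75428024, plus strand): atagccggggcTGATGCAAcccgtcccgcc
*MTHFD1L* (chr6:150866346-150866375, plus strand): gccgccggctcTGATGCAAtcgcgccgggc
In *JDP2*, *CEBPG*, *BCAT1*, *FGF21* and *ASNS* the element lay 16, 42, 48, 54 and 68 bases before the start. In *ATF3*, *GOT1* and *CHAC1* it lay 191, 198 and 209 bases before it. In *MTHFD1L* the element lay in 3 windows, whose starts ran from 129 bases after the element to 24 bases before it. Of the genes with the element, 4 were lower in NRP2-high cells, 1 was higher, 2 did not pass the test and 2 had too few counts. Of all tested genes, 27.7% were lower and 28.9% higher. With so few genes, these calls say nothing particular about the element.

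The libraries held 18165923 to 20585102 counts. Levels are given as CPM, counts relative to a library size that TMM, an edgeR normalization, corrects for composition, and 3 counts correspond to 0.151 to 0.163 CPM. These depths limit the precision of values from few counts, and the 2 libraries per group limit that of every value. *NRP2* itself was at 141 and 146 CPM in NRP2-high and at 9.79 and 8.82 CPM in NRP2-low libraries, which checks the labels. Genes named MT- took 6.92% and 9.16% of counts in NRP2-high and 5.57% and 5.85% in NRP2-low libraries. Of 5 mesenchymal markers, *VIM* (23658 to 27183 counts per library) and *ZEB1* did not pass the test described below, *FN1* and *SPARC* were higher in NRP2-high cells (log2 fold changes 1.85 and 0.20) and *CDH2* was lower (-0.59). Of the luminal markers, *EPCAM* and *CDH1* had at most 5 counts in any library, and the keratins went opposite ways. *KRT19* had 205 and 266 counts in NRP2-high and 6 and 7 in NRP2-low libraries, whereas *KRT8* had 7 and 6 against 50 and 43 counts and *KRT18* 8 and 5 against 73 and 69 counts. *ERBB2* did not pass the test (log2 fold change -0.12). The 6 luminal markers measured of 8 listed summed to 32.9 and 33.7 TPM (a scale that also divides by gene length) in NRP2-high and to 24.0 and 25.3 TPM in NRP2-low libraries, a sum that is higher through *KRT19* alone. The immune marker *PTPRC* had at most 8 counts.

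Of the 33 members, 31 passed the filter on low counts, counting *SESN3*, which passed only through the group where it is high. Among these, 16 had less and 7 more RNA in NRP2-high cells, with 0.05 as the limit of the adjusted p (edgeR's quasi-likelihood test, Benjamini-Hochberg adjustment over 15083 genes), and 8 did not pass. The population difference was wide, since 56.5% of all tested genes passed, 27.7% lower and 28.9% higher. Against this background, 51.6% of tested members were lower and 22.6% higher. The members were chosen with earlier results of these data known, so their shares are a description and no support for a shift. The median log2 fold change (NRP2-high over NRP2-low) was -0.24 for the members and -0.01 for all tested genes. At a change of at least 1.5-fold, 11 members were lower and 4 higher (48.4% of those tested, against 30.1% of all genes). The CPM of the groups did not overlap for 28 of the 31 members (90.3%), against 78.2% of all genes. In TPM, which carry no TMM scaling and shift the median of all genes by up to -0.15, the members split 4 higher to 17 lower, and 36.8% instead of 51.0% of all calls were higher.

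**Figure D1:**
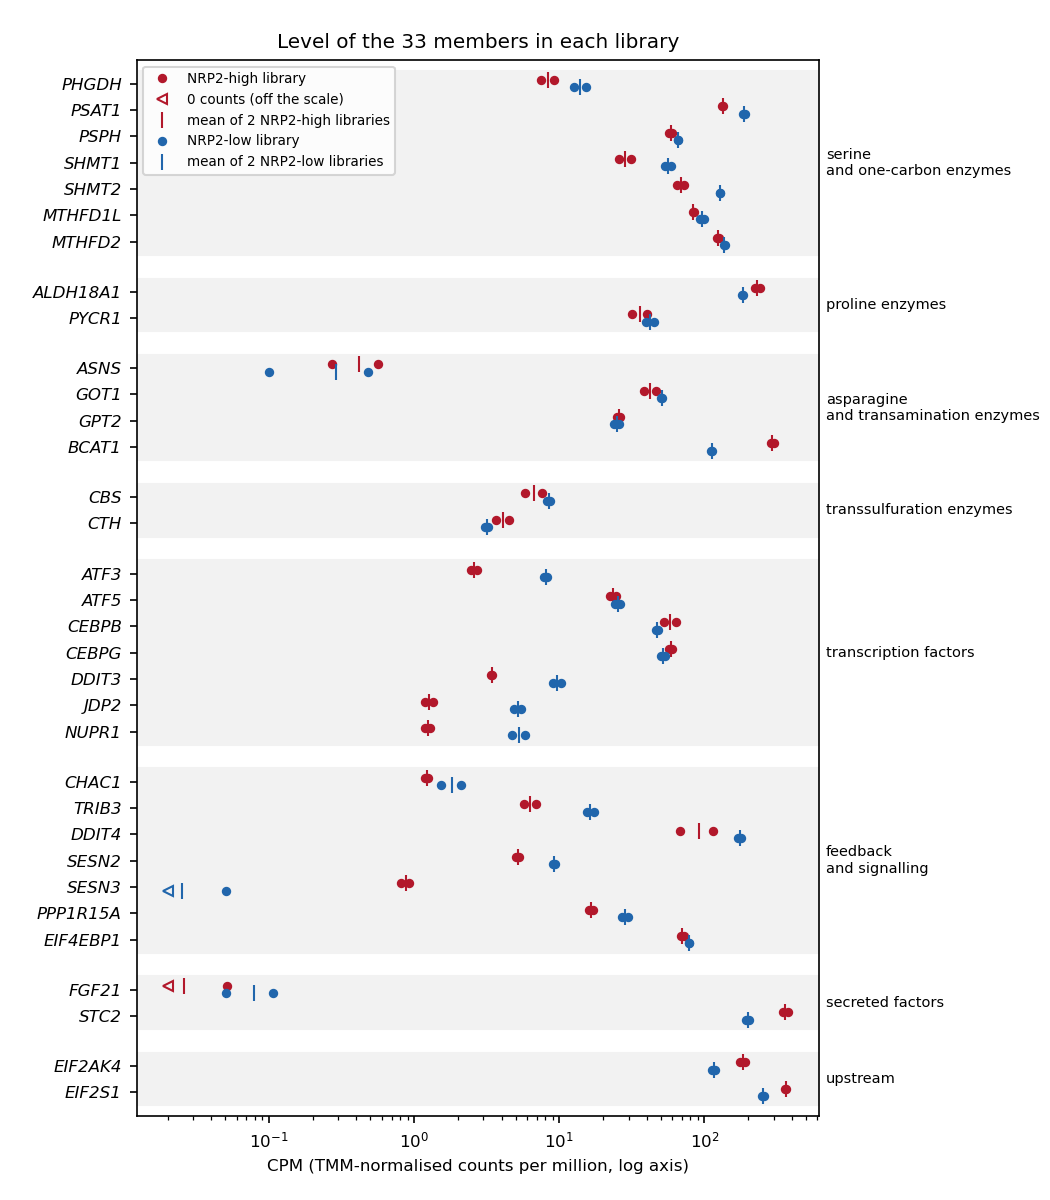
CPM of each of the 33 members in each library (log axis), grouped by role, with the mean of each pair as a tick and libraries at 0 counts as open triangles. *ATF3*, *DDIT3*, *JDP2*, *NUPR1* and *TRIB3* lie to the left in both NRP2-high libraries, and *BCAT1* and *STC2* lie to the right. *ASNS*, *FGF21* and *SESN3* stay below 1 CPM in all 4.

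The serine and one-carbon enzymes were lower in NRP2-high cells, all 7 of 7, by log2 fold changes of -0.15 to -0.99. Of all tested genes, 27.7% were lower. Their summed level was 501 and 447 TPM in NRP2-high libraries and 716 and 697 TPM in NRP2-low libraries. The larger differences were at the serine hydroxymethyltransferases and at the entry of the pathway. *SHMT2*, the mitochondrial enzyme that splits serine into glycine and a one-carbon unit, was at 72.5 and 64.4 CPM in NRP2-high and at 128 and 127 CPM in NRP2-low libraries. Both NRP2-high values lay well below both NRP2-low values, a log2 fold change of -0.90 (standard error, SE, 0.07, adjusted p = 7.9e-07). *SHMT1*, its cytosolic counterpart, was at 31.3 and 25.6 CPM against 53.9 and 59.1 CPM, without overlap, and its log2 fold change was -0.99 (SE 0.10, adjusted p = 7.2e-06). *SHMT1* lies on chromosome 17 (18327860 to 18363563, minus strand, hg38). The median log2 fold change of the 99 other tested genes with starts within 5 Mb of its start was -0.67. Members were left out of all such neighbour sets. The part of the neighbours' shift in the difference of *SHMT1* was not tested. *SHMT2* lies on chromosome 12 (57229327 to 57234931, plus strand), where the 131 such neighbours had a median of -0.29.

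*PHGDH* encodes the dehydrogenase that draws 3-phosphoglycerate from glycolysis into serine synthesis. It was low throughout, at 9.25 and 7.43 CPM in NRP2-high and 15.3 and 12.5 CPM in NRP2-low libraries. The groups did not overlap, and the log2 fold change was -0.74 (SE 0.15, adjusted p = 0.0013). The next enzyme, the aminotransferase *PSAT1*, was abundant, at 132 and 135 CPM against 192 and 183 CPM, and fell by 0.49 on the log2 scale (SE 0.05, adjusted p = 1.4e-05). Per length, *PSAT1* had the highest mean over the 4 libraries of all members, 258 TPM, while *PHGDH* was at 4.28 TPM. The phosphatase *PSPH*, which completes serine, and the mitochondrial folate enzymes *MTHFD1L* and *MTHFD2* differed little. Their log2 fold changes were -0.17 (adjusted p = 0.036), -0.20 (adjusted p = 0.014) and -0.15 (adjusted p = 0.035). The pseudogene *PSPHP1*, with 255 to 344 counts per library, may share fragments with *PSPH*. The calls of *PSPH*, *MTHFD1L* and *MTHFD2* were lost in DESeq2. Without NRP2-low replicate 1 the log2 fold changes were -0.19 for *PSPH*, -0.17 for *MTHFD1L* and -0.14 for *MTHFD2*. Without NRP2-low replicate 2 they were -0.16, -0.23 and -0.16.

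The proline enzymes did not share a direction. *ALDH18A1*, which encodes the enzyme that starts proline synthesis from glutamate, was at 240 and 224 CPM in NRP2-high and 183 and 185 CPM in NRP2-low libraries. It rose by 0.33 on the log2 scale (SE 0.05, adjusted p = 0.00027), a call that was lost in TPM. *PYCR1*, the mitochondrial reductase that finishes proline, was at 40.1 and 31.6 CPM against 39.6 and 45.1 CPM, so the groups overlapped. Its log2 fold change of -0.24 (SE 0.11) did not pass (adjusted p = 0.083). Without NRP2-high replicate 1 it was -0.41, and without NRP2-high replicate 2 it was -0.08. *PYCR1* passed with no filter on low counts.

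*ASNS*, asparagine synthetase and a textbook ATF4 target, was close to the limit of detection in both populations. It had 5 and 11 counts in NRP2-high and 2 and 9 in NRP2-low libraries, or 0.272, 0.567, 0.10 and 0.478 CPM in that order. The groups overlapped, and the gene was removed by the filter on low counts. The ratio of pooled counts was 1.49 (95% Clopper-Pearson interval 0.650 to 3.56, which covers counting error only). Its mean level was 0.272 TPM, while the transaminases grouped with it were at 13.9 TPM (*GPT2*), 48.3 TPM (*GOT1*) and 58.8 TPM (*BCAT1*). The *ASNS* pseudogene rows *ASNSP1*, *ASNSP3* and *ASNSP4* had at most 6 counts in any library. The gene spans 97852118 to 97872542 on the minus strand of chromosome 7, and its promoter window holds the element shown above.

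*BCAT1*, the cytosolic aminotransferase of branched-chain amino acids, was the enzyme with the largest difference among the members. It was at 303 and 285 CPM in NRP2-high and 113 and 111 CPM in NRP2-low libraries, far outside the spread of either pair. The log2 fold change was 1.39 (SE 0.05, adjusted p = 4.4e-09), 2.62-fold. The gene lies on the minus strand of chromosome 12 (24810022 to 24949459), and the 41 other tested genes within 5 Mb had a median log2 fold change of 0.15. *GOT1*, the cytosolic aspartate aminotransferase, was at 38.5 and 46.1 CPM against 51.1 and 50.2 CPM, a log2 fold change of -0.26 (adjusted p = 0.025). That call was lost in DESeq2. The log2 fold change was -0.13 without NRP2-high replicate 1 and -0.40 without NRP2-high replicate 2. Without NRP2-low replicate 1 it was -0.26, and without NRP2-low replicate 2 it was -0.27. *GPT2*, the mitochondrial alanine aminotransferase, had a log2 fold change of 0.04 (SE 0.09, adjusted p = 0.69), with 24.0 to 26.3 CPM in all libraries.

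The transsulfuration enzymes, which turn homocysteine into cysteine, were low and did not pass. *CBS* was at 7.62 and 5.83 CPM in NRP2-high and 8.68 and 8.29 CPM in NRP2-low libraries (log2 fold change -0.34, standard error 0.16, adjusted p = 0.087). Without NRP2-high replicate 1 its value was -0.54, and without NRP2-high replicate 2 it was -0.16. The annotation holds a near-identical copy, *CBSL*, with 2 to 4 counts per library, and fragments that fit both copies are lost at a mapping quality above 20, so the level of *CBS* is uncertain. *CTH* was at 4.52 and 3.66 CPM against 3.06 and 3.24 CPM, a log2 fold change of 0.37 (SE 0.20, adjusted p = 0.13). The value was 0.52 without NRP2-high replicate 2 and 0.22 without NRP2-high replicate 1.

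Of the 7 transcription factors of the response, *NUPR1*, *JDP2*, *ATF3* and *DDIT3* were lower in NRP2-high cells, *CEBPB* was higher, and *CEBPG* and *ATF5* did not pass. That made 4 lower, 1 higher and 2 not passing, with a median log2 fold change of -1.50. The share lower was 57.1%, against 27.7% of all tested genes. *NUPR1*, a small stress-induced chromatin protein, was at 1.20 and 1.29 CPM in NRP2-high and 4.72 and 5.85 CPM in NRP2-low libraries. Its log2 fold change was -2.08 (SE 0.23, adjusted p = 2e-05), the largest decrease among the members. *JDP2*, a bZIP repressor that binds ATF and AP-1 sites, was at 1.20 and 1.34 CPM against 5.42 and 4.89 CPM, a log2 fold change of -2.02 (SE 0.22, adjusted p = 1.7e-05). Both genes were near the low end of the levels, with 22 to 26 counts in NRP2-high libraries and 92 to 110 in NRP2-low libraries. *NUPR1* lies on chromosome 16 (28532708 to 28539174, minus strand) and *JDP2* on chromosome 14 (75427716 to 75469798, plus strand).

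*ATF3*, a bZIP factor induced by ATF4 and by many acute stimuli, was at 2.72 and 2.48 CPM in NRP2-high and at 8.28 and 7.81 CPM in NRP2-low libraries. The pairs were tight and did not overlap. The log2 fold change was -1.63 (SE 0.17, adjusted p = 1.2e-05), 3.10-fold. On chromosome 1 (212565334 to 212620777, plus strand), the 45 other tested genes within 5 Mb had a median log2 fold change of 0.60, opposite in sign to *ATF3*. *DDIT3*, which encodes CHOP, was at 3.37 and 3.46 CPM against 10.3 and 8.98 CPM. Its log2 fold change was -1.50 (SE 0.16, adjusted p = 1.3e-05), again without overlap. *DDIT3* (chromosome 12, 57516588 to 57521737, minus strand) lies close to *SHMT2*, and its 129 neighbours had a median of -0.27.

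*CEBPB*, a C/EBP factor that pairs with ATF4, was at 63.5 and 52.7 CPM in NRP2-high and 46.2 and 47.6 CPM in NRP2-low libraries. It rose by 0.31 on the log2 scale (SE 0.09, adjusted p = 0.011), a call lost in TPM and FPKM. Without NRP2-high replicate 1 the value was 0.18 and without NRP2-high replicate 2 it was 0.44. Without NRP2-low replicate 1 it was 0.28, and without NRP2-low replicate 2 it was 0.33. *CEBPG*, another such partner, had a log2 fold change of 0.17 (SE 0.07, adjusted p = 0.056), with 57.1 and 59.8 CPM against 50.4 and 53.8 CPM. The value was 0.14 without NRP2-high replicate 1 and 0.20 without NRP2-high replicate 2. *ATF5*, a paralog of ATF4, had a log2 fold change of -0.10 (SE 0.09, adjusted p = 0.38), with 22.3 to 26.3 CPM in all libraries.

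The stress outputs and translation regulators were mostly lower as well: 4 of 7 were lower, 1 was higher and 2 did not pass. The share lower was 57.1%, against 27.7% of all tested genes. *TRIB3*, a pseudokinase that restrains ATF4 and AKT, was at 6.86 and 5.67 CPM in NRP2-high and 15.4 and 17.2 CPM in NRP2-low libraries. Its groups were well apart, with a log2 fold change of -1.38 (SE 0.13, adjusted p = 7e-06). The gene lies at the end of the short arm of chromosome 20 (362835 to 397559, plus strand), and its 53 neighbours had a median log2 fold change of -0.19. *PPP1R15A* encodes the subunit that directs a phosphatase to eIF2 and so restores translation. It was at 15.9 and 17.1 CPM against 27.1 and 29.8 CPM, a log2 fold change of -0.78 (SE 0.09, adjusted p = 3.8e-05). *SESN2*, which senses leucine and restrains mTORC1, was at 5.06 and 5.26 CPM against 9.39 and 9.03 CPM, a log2 fold change of -0.83 (SE 0.14, adjusted p = 0.0004).

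*DDIT4* (REDD1), another mTORC1 inhibitor, also responds to hypoxia and glucocorticoids. It was at 115 and 67.8 CPM in NRP2-high and at 172 and 177 CPM in NRP2-low libraries. The NRP2-high pair differed by 1.70-fold, the widest gap within a pair among members above 1 CPM, yet both values stayed below the NRP2-low pair. The log2 fold change was -0.94 (SE 0.17, adjusted p = 0.00068). It was -1.36 without NRP2-high replicate 1 and -0.60 without NRP2-high replicate 2. The call was lost in TPM with no filter (adjusted p = 0.11 from limma).

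*SESN3*, which encodes another sestrin and is also a target of FOXO factors, went the other way. It had 15 and 18 counts in NRP2-high libraries and 1 and 0 in NRP2-low libraries, or 0.816 and 0.928 CPM against 0.0502 and 0 CPM. The ratio of pooled counts was 33.9 (95% Clopper-Pearson interval 5.67 to 1377, counting error only). The fitted log2 fold change of 4.77 (adjusted p = 0.00029) depends on the prior count, and it was 7.05 without NRP2-low replicate 1 and 3.96 without NRP2-low replicate 2. *SESN3* passed the filter on low counts only through the NRP2-high libraries. Its test and its place among the higher members thus give no support for a difference in the response. The call was lost in TPM with no filter. *CHAC1*, which degrades glutathione, was at 1.20 and 1.24 CPM in NRP2-high and 2.11 and 1.54 CPM in NRP2-low libraries. Its log2 fold change of -0.59 (SE 0.29) did not pass (adjusted p = 0.11). *EIF4EBP1*, the repressor of the cap-binding factor eIF4E, had a log2 fold change of -0.15 (SE 0.06, adjusted p = 0.055), at 68.5 and 71.8 CPM against 77.8 and 77.7 CPM. It passed in TPM and FPKM. The value was -0.18 without NRP2-high replicate 2 and -0.11 without NRP2-high replicate 1.

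*ATF3*, *PPP1R15A* and *DDIT3* can also respond to cell handling. Of 15 immediate-early and dissociation genes, such as *FOS*, *EGR1* and *DUSP1*, 7 were lower, 1 was higher and 7 did not pass. That is 53.3% called, against 56.5% of all tested genes, and 13.3% against 30.1% at 1.5-fold or more. By direction, 46.7% of this list were lower and 6.67% higher, against 27.7% and 28.9% of all tested genes. The median log2 fold change of these 15 genes was -0.28. The list summed to 744 and 640 TPM in NRP2-high and 831 and 826 TPM in NRP2-low libraries, and its part in the differences of the stress genes was not tested.

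Of the secreted factors, *STC2*, a stanniocalcin glycoprotein induced by ER stress and hypoxia, rose. It was at 376 and 347 CPM in NRP2-high and 194 and 204 CPM in NRP2-low libraries, with a log2 fold change of 0.86 (SE 0.06, adjusted p = 3.2e-07). It lies on the minus strand of chromosome 5 (173314713 to 173329503), where its 71 neighbours had a median of -0.19. *FGF21*, a starvation hormone, had 0 and 1 counts in NRP2-high and 1 and 2 counts in NRP2-low libraries, too few at this depth to show any difference.

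Both members upstream of ATF4 were higher in NRP2-high cells, as were 28.9% of all tested genes. *EIF2AK4* (GCN2), the kinase that senses uncharged tRNA, was at 177 and 189 CPM against 113 and 118 CPM, a log2 fold change of 0.66 (SE 0.06, adjusted p = 2.5e-06). Its substrate *EIF2S1*, the alpha subunit of eIF2, was at 367 and 357 CPM against 256 and 250 CPM, a log2 fold change of 0.52 (SE 0.05, adjusted p = 5.2e-06). In the same bulk libraries *DDIT3*, *ATF3* and *TRIB3* were lower, while *BCAT1*, *STC2* and *CEBPB* were higher. The wider list of eIF2 kinases, eIF2, eIF2B and partners, given below, was split, with 6 higher and 5 lower.

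**Figure D2:**
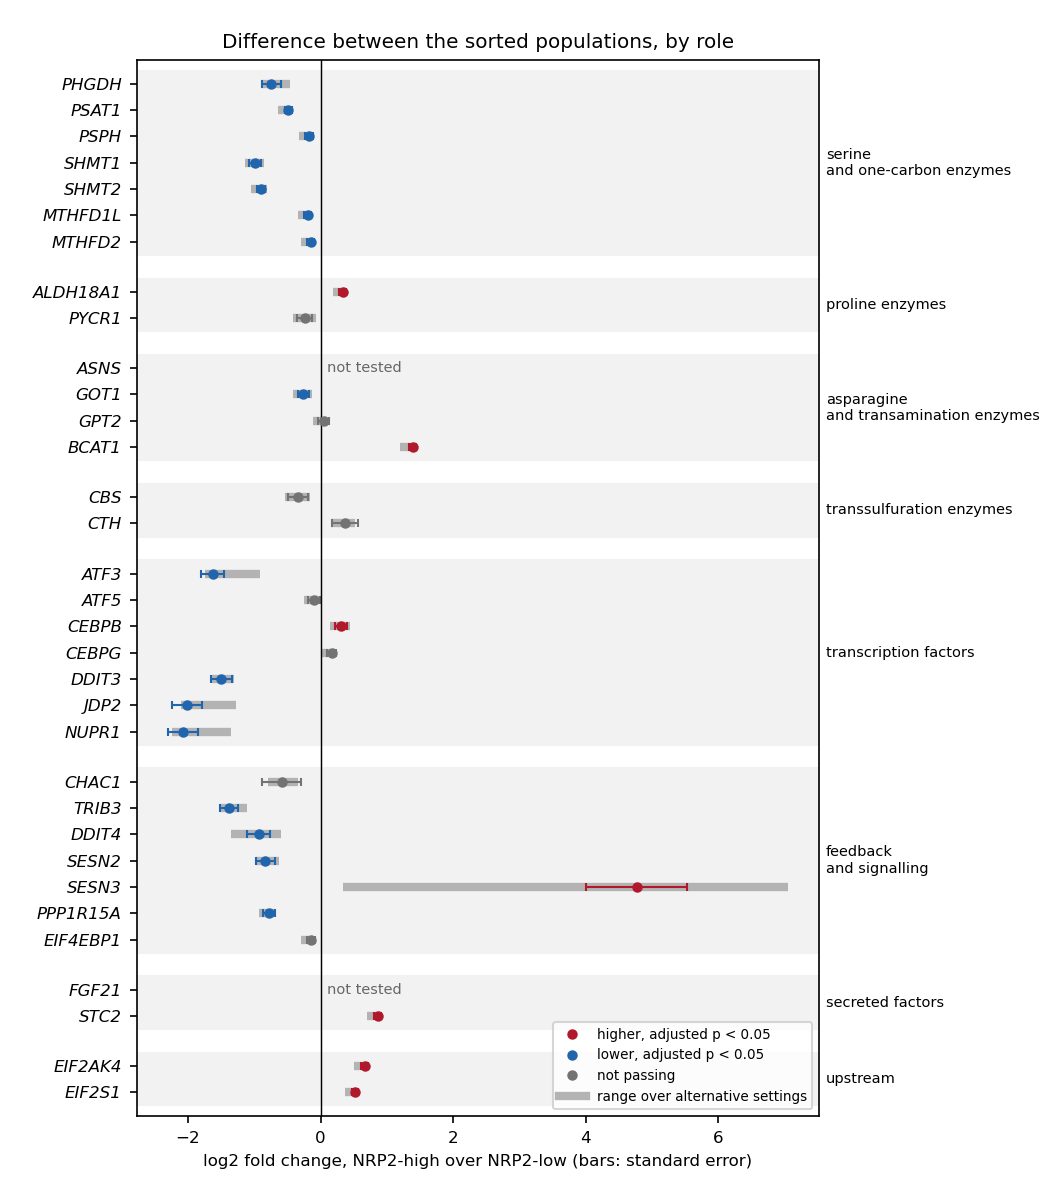
Log2 fold change (NRP2-high over NRP2-low) of each tested member with its standard error, coloured by call, with the range over alternative settings as a grey bar. The serine and one-carbon enzymes all lie left of 0, from -0.99 to -0.15, *NUPR1* and *JDP2* lie farthest left at -2.08 and -2.02, and the bar of *SESN3* is the widest.

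*ATF4* itself was 0.19 lower on the log2 scale (SE 0.05, adjusted p = 0.0091), with 3418 and 3794 counts in NRP2-high and 4305 and 4100 in NRP2-low libraries. With single libraries left out, the value ran from -0.22 to -0.14. The pseudogene *ATF4P3* had 84 to 137 counts per library, and fragments shared with it may be missing from *ATF4*. Among the 16 tested genes of the eIF2 kinases, eIF2, eIF2B and their partners, *ATF4* included, 6 were higher, 5 lower and 5 did not pass, with a median of 0.10. Of this list 68.8% were called, and 6.25% at 1.5-fold or more, against 56.5% and 30.1% of all genes. *EIF2S3*, the gamma subunit of eIF2, rose by 0.77, *PPP1R15B*, the constitutive eIF2 phosphatase subunit, by 0.56 and *GCN1*, the activator of GCN2, by 0.47 on the log2 scale. *EIF2AK2* (PKR), an interferon-inducible kinase, fell by 0.40.

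Of 20 cytosolic aminoacyl-tRNA synthetases, which charge tRNA and include many ATF4 targets, 9 were lower, 4 higher and 7 did not pass, with a median log2 fold change of -0.12. That is 65% called, and 5% at 1.5-fold or more, against 56.5% and 30.1% of all genes. By direction, 45% were lower and 20% higher, against 27.7% and 28.9% of all genes. *CARS1* and *SARS1*, for cysteine and serine, had log2 fold changes of -0.78 and -0.50, and *FARSB*, a phenylalanine synthetase subunit, had 0.46. Amino acid transporters under ATF4 were lower in 5 of 8 and higher in 2 of 8, with 1 not passing and a median of -0.43. Among the transporters 87.5% were called, and 50% at 1.5-fold or more, against the same 56.5% and 30.1% of all genes. By direction, 62.5% of them were lower and 25% higher, against 27.7% and 28.9%. The arginine and lysine carrier *SLC7A1* had -1.29, *SLC3A2*, the heavy chain shared by several carriers, -1.07, the leucine carrier *SLC7A5* -0.66 and the alanine and serine carrier *SLC1A4* -1.97 as log2 fold changes.

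The other serine, glycine and one-carbon genes did not follow the 7 members: of 11 tested, 5 were higher, 4 lower and 2 did not pass. That is 81.8% called, against 56.5% of all genes. *ALDH1L2*, the mitochondrial enzyme that oxidizes 10-formyltetrahydrofolate, had 1733 and 1951 counts in NRP2-high and 558 and 606 in NRP2-low libraries. Its log2 fold change was 1.70 (SE 0.08, adjusted p = 1.9e-08). Methionine synthase (*MTR*) rose by 0.52 and the cytosolic *MTHFD1* by 0.35 on the log2 scale, while the glycine decarboxylase *GLDC* fell by 0.61. In the list of other proline, glutamate, aspartate, alanine, branched-chain and methionine genes, 5 of 11 tested were higher, 1 lower and 5 did not pass. The share called, 54.5%, was near the 56.5% of all genes. Ornithine aminotransferase (*OAT*), glutamate dehydrogenase (*GLUD1*) and glutamine synthetase (*GLUL*) had log2 fold changes of 0.76, 0.39 and 0.32. *MTHFD1*, *GLUD1*, *GLUL* and *GCN1* lost their calls in TPM. Over all 66 companion genes tested, 22 were higher and 24 lower, 69.7% called against 56.5% of all genes. At a change of at least 1.5-fold, 22.7% were called, against 30.1% of all genes. Their median absolute log2 fold change was 0.31, against 0.39 for all tested genes.

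**Figure D3:**
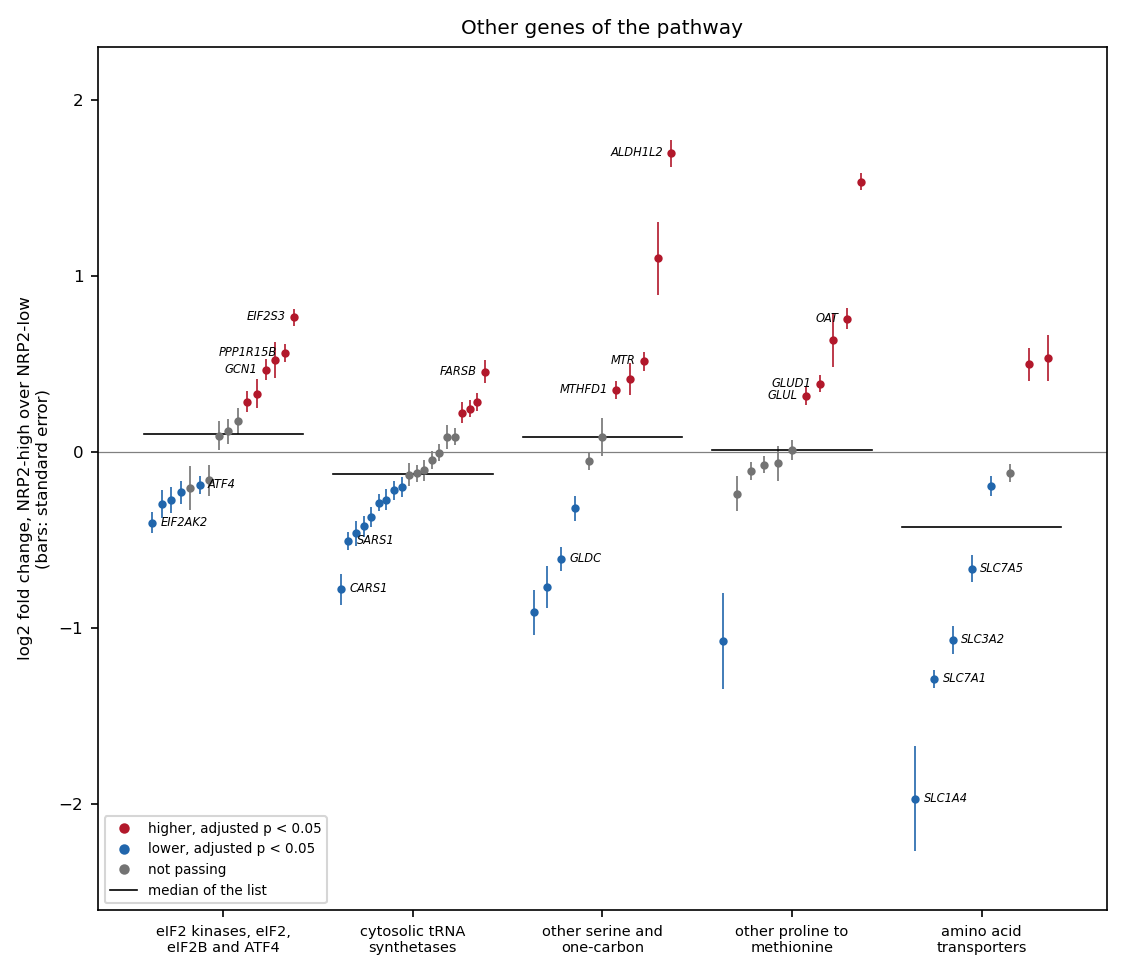
Log2 fold change (NRP2-high over NRP2-low) with its standard error for 66 other genes of the pathway in 5 lists, coloured by call, with the median of each list as a line. The transporter list has the lowest median, -0.43, while *ALDH1L2* (1.70) is the highest point.

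Those members with a difference of at least 1.5-fold were set beside their neighbours. These are the other tested genes with starts within 5 Mb, members left out. The neighbours' medians ran from -0.67 around *SHMT1* to 0.60 around *ATF3*. Around *JDP2* and *NUPR1* the medians were -0.02 and -0.03, while those genes had -2.02 and -2.08. Around *BCAT1* and *STC2* they were 0.15 and -0.19. The plot of members against neighbours shows these values as a description, since genes near each other are not replicates.

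**Figure D4:**
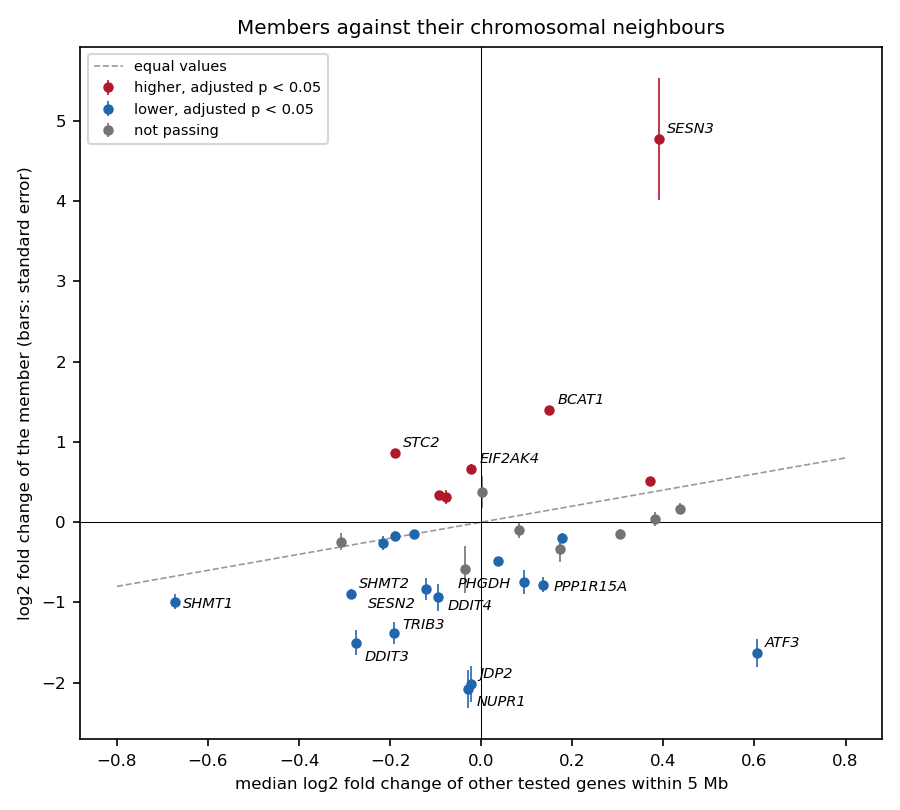
Log2 fold change of each tested member with its standard error (vertical axis). The horizontal axis gives the median log2 fold change of the other tested genes with starts within 5 Mb, members left out. A dashed line marks equal values. *SHMT1* has the lowest neighbour median (-0.67) and lies nearest to the line among the labelled members with a decrease, and *ATF3* lies below 0 with neighbours at 0.60.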

How the data were processed

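RNA of 4 libraries was analysed, 2 per sorted population. The authors prepared stranded libraries of polyadenylated RNA from 250 ng, aligned reads to hg38 with STAR 2.5.3a and counted exon fragments with mapping quality above 20 using featureCounts 1.5.2. The annotation release and the strand setting of the counting were not given in the sources used here. The deposited counts are not normalized. The deposited TPM values are scaled by the authors to the same sum per library, and the deposited FPKM values are per length and total count.

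Counts were tested with edgeR 4.0.16 (R 4.3.3): default filterByExpr, TMM, quasi-likelihood F test without covariates, adjusted p under 0.05 over 15083 genes. CPM use TMM-corrected library sizes, and each standard error was derived from the F statistic as |log2 fold change|/√F. Alternatives were DESeq2 1.42.0, limma-voom (limma 3.58.1), RLE factors, other filters, an edgeR test for changes beyond 1.5-fold, a stricter limit of 0.01, removal of MT- genes with the 10 most abundant genes, a block for replicate number, omission of single libraries, and limma on log2 TPM (pseudocounts 1 and 0.1) or log2 FPKM (pseudocount 1), with values of at least 1 in 2 libraries. The scripts were tested on simulated data.

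Members and lists were chosen with earlier results of these data known. By rule, members past 1.5-fold were described in full, and up to 4 companion genes per list with the smallest p, with *ATF4*, were named. *PRODH* and *SLC7A3* had no matching name. A few companion genes are counted in their lists but not reported here by name. Between the NRP2-low libraries the mean chi-square per gene was 1.60 and between the NRP2-high libraries 10.6, where counting error alone gives about 1, so all were kept as separate samples.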

Additional observations from a re-analysis of the deposited data

How the results depend on the processing

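Of 520 values of single members under the alternatives, 460 kept their side of the threshold, 45 lost the call, 15 gained it and 0 reversed. Of the 23 called members, 10 kept the call in every alternative that gave a value: *SHMT1*, *SHMT2*, *BCAT1*, *ATF3*, *DDIT3*, *JDP2*, *NUPR1*, *TRIB3*, *PPP1R15A* and *STC2*. A test against 1.5-fold left 3 members higher and 9 lower, and 5 companion genes higher and 5 lower, as it asks for a larger change; *PHGDH*, *SESN2* and *EIF2AK4* lost their calls there. Members higher numbered 4 on log2(TPM + 1) and log2(TPM + 0.1) and 3 on log2(TPM + 1) with no filter, where *PHGDH*, *EIF2S1*, *DDIT4* and *SESN3* were among the calls lost. Companion genes higher numbered 8, 8 and 6 at the same settings. These scales carry no TMM factors. Omission of a single library left a lone sample in a group, which is then assumed to vary like the other group. The pairs differ in spread, with a mean chi-square per gene of 1.60 between NRP2-low and 10.6 between NRP2-high libraries. Calls gained or lost at these settings therefore depend on which pair is left, and only log2 fold changes are given for single genes. The counts of values and of kept calls above include these settings. Replicate numbers are shared in the labels, but deviations of same-numbered libraries had a correlation of -0.01, so they were not treated as pairs. With a replicate block, 8 members were higher and 17 lower, with *CEBPG* and *PYCR1* gained, and 22 and 24 companion genes. Depth limits *ASNS*, *FGF21* and *SESN3*.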
